A study of Homo sapiens with 6 samples.

Results

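The circadian clock genes examined here are CLOCK, PER1, PER2, PER3, CRY1, CRY2, NR1D1, NR1D2, DBP and TEF. They were picked by symbol from the table of gene levels, and all 10 were found among the 58735 genes listed. RNA-seq had been run on wild-type HCT116 cells, an established human colorectal carcinoma line. It covered 3 control libraries (CTR) and 3 libraries of cells transfected with miR-8485 mimics. These are short synthetic RNAs, used in the study to overexpress the microRNA. Their sequence was not compared here with that of the mature microRNA. The mimics were given at 50 nM, while the sequence and dose of the control are not given in the sources used here. By the methods, cells were collected 48 h after transfection unless another time is named. None is named for RNA-seq, so 48 h was taken for these libraries. The libraries are called independent biological replicates of 1 cell line. The labels of the 6 libraries give no series of times, and no synchronization of the cells is described. Levels and not rhythms were thus measured, and a shift of the cells' phase and a change of level cannot be told apart. In such bulk libraries, fewer cells with a transcript and less of it per cell cannot be told apart either.

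The mammalian clock is a loop of transcription and repression. CLOCK pairs with BMAL1 (listed as ARNTL) and activates genes through E-boxes in their promoters, among them the PER and CRY genes, whose proteins return to the nucleus and block CLOCK and BMAL1. In a second loop, the nuclear receptors REV-ERB alpha (NR1D1) and REV-ERB beta (NR1D2) repress ARNTL through ROR elements, and the output factors DBP and TEF, which are bZIP proteins, activate genes through D-boxes.

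With miR-8485, 3 of the 9 clock genes that could be tested at a mean of at least 1 FPKM were upregulated, 2 were downregulated and 4 did not pass the test. FPKM is the number of fragments of a gene divided by the length of the gene and by the total fragments of the library. PER1 and both output factors rose, CRY2 and NR1D2 fell, and CLOCK, PER2, CRY1 and NR1D1 did not pass. The number of lower genes was 1, without NR1D2, when CTR replicate 1 or 3 or miR-8485 replicate 1 or 2 was left out, and 4, with CLOCK and PER2, under TPM and voom. The test was limma on log2(FPKM + 0.1) over 12349 genes, adjusted by Benjamini-Hochberg, with a call at an adjusted p under 0.05. Over all tested genes 29.1% were called higher and 30.5% lower, so a call by itself sets no clock gene apart. The log2 fold changes, given throughout as miR-8485 minus CTR on that scale, had a median of -0.082 over the 9 clock genes and of -0.0041 over all tested genes. Their median size without regard to sign was 0.23, against 0.33 over all tested genes.

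Each clock gene but DBP held, in a promoter, the letters of at least 1 element through which the loop is known to act. Of the 16 matches found, 11 are shown here with their surrounding bases. They are 1 E-box or E′-box for each gene that held one and all 3 D-boxes, chosen because these are elements of the loop described above. In the RefSeq promoter windows (GRCh38.p14, 250 bases before to 50 after a start site), all 10 genes had an entry, with 15 windows in all. The motifs searched on both strands were the E-box (CACGTG), the E′-box (CACGTT), the D-box (TTATGTAA or TTACGTAA) and the ROR element (TAGGTCA or TGGGTCA). In the clock genes, no match overlapped another. Sequences run 5′ to 3′ on the strand of the gene, and capitals mark the motif or its reverse complement.
PER1 E-box, chr17:8152560-8152589, minus strand: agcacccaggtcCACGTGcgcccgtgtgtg
TEF E-box, chr22:41367248-41367277, plus strand: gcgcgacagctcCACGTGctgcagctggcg
NR1D2 E-box, chr3:23945954-23945983, plus strand: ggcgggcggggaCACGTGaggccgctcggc
PER2 E′-box, chr2:238288790-238288819, minus strand: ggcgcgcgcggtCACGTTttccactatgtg
CLOCK E′-box, chr4:55546102-55546131, minus strand: tcaccactcgggCACGTTtggagcagcgcc
CRY1 E′-box, chr12:107093621-107093650, minus strand: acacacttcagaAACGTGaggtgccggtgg
CRY2 E′-box, chr11:45847275-45847304, plus strand: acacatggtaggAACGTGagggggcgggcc
NR1D1 E′-box, chr17:40100740-40100769, minus strand: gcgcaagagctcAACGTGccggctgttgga
PER2 D-box, chr2:238288595-238288624, minus strand: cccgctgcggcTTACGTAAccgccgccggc
PER3 D-box, chr1:7784103-7784132, plus strand: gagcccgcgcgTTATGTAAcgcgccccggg
NR1D2 D-box, chr3:23945916-23945945, plus strand: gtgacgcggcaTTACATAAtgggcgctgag

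An E-box was found in 3 of the 10 clock genes (PER1, TEF and NR1D2) and in 8.77% of the 27305 genes of the promoter table. An E′-box was found in 5 other clock genes, against 6.44% of all genes, so that 8 of 10 held one or the other, against 14.5% of all genes. A D-box lay in PER2, PER3 and NR1D2, against 1.27% of all genes, and a ROR element lay in NR1D2, CLOCK and CRY2, against 6.94%. A gene with more windows has more room for a match, so windows were counted too. Of the 15 windows of the clock genes, 4 held an E-box, 5 an E′-box, 3 a D-box and 3 a ROR element. Of all 35116 windows, 7.26%, 5.34%, 1.01% and 5.69% did. NR1D2 was the gene with the most matches, with 2 E-boxes, a D-box and a ROR element in 1 window. The D-box of PER2 was the match closest to a start site, as it began 3 bases before that site and ran across it. The E-box of PER1 began 173 bases before its start site. The DBP window held none of these letters. Matches are descriptions of sequence and no binding was measured. Genes with an E-box changed in both directions, since PER1 and TEF rose and NR1D2 fell.

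The libraries held 17473874 to 18480047 fragments on listed genes, and 100% of the values in each were a whole number of fragments within 0.001. The chi-square per gene between libraries was 2.68 to 9.60 within groups, highest for the pairs with CTR replicate 1, and 54.4 to 62.4 between groups. Of 7 epithelial and intestinal markers, EPCAM, KRT8, KRT18, CDH1 and CDX2 were expressed, while VIL1 and CDX1 did not exceed 0.0639 FPKM in any library. The 7 summed to 1519 to 1646 FPKM in CTR and to 1004 to 1036 FPKM with miR-8485, a sum carried by KRT8 and KRT18. These keratins had log2 fold changes of -0.62 and -0.97, while CDX2 rose by 0.81 (adjusted p = 1.43e-05 in limma) and EPCAM (-0.048) and CDH1 (-0.049) did not pass. Of 5 markers of other cell types, PTPRC, PECAM1 and VIM stayed at or below 0.183 FPKM, but COL1A1 (4.05 to 6.40) and DES (0.359 to 2.26) did not. Those 5 summed to 6.20 to 6.61 FPKM in CTR and to 6.90 to 7.09 FPKM with miR-8485, with COL1A1 up (log2 fold change 0.56, adjusted p = 1.33e-04) and DES down (-1.73, adjusted p = 7.41e-04 in limma). The part of these marker changes in the results on clock genes was not tested.

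**Figure D1:**
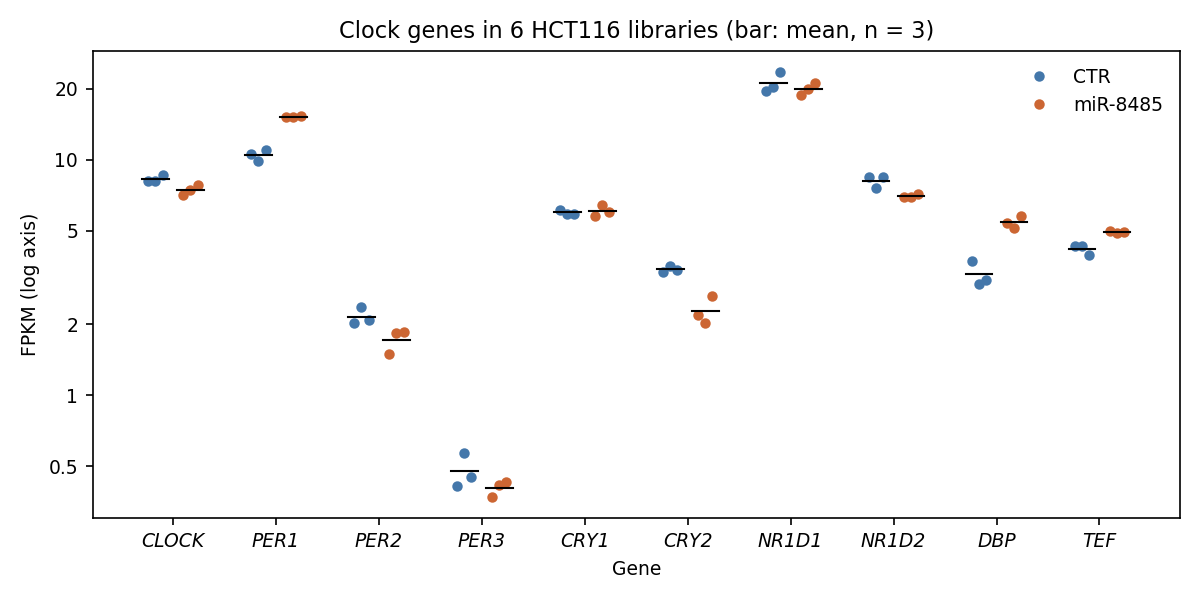
FPKM of the 10 clock genes (log axis) in the 3 CTR and 3 miR-8485 libraries, with a point for each library and a bar for the group mean. PER1, DBP and TEF lie higher in every miR-8485 library than in any CTR library, CLOCK, PER2, CRY2 and NR1D2 lie lower, and PER3, CRY1 and NR1D1 overlap.

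In CTR, the clock genes spanned from 0.476 FPKM for PER3 to 21.2 FPKM for NR1D1, around the median of 6.09 FPKM of tested genes, as the plot of levels by library shows. Ranked per file length, NR1D1 was followed by PER1, then by CLOCK and NR1D2, whose CTR values overlapped. CRY1 and TEF came next, then CRY2 and DBP, which overlapped, and PER2 and PER3 were last. With miR-8485, DBP passed TEF and CRY2 and overlapped CRY1 (5.75 to 6.40 FPKM), and the other genes kept this order. These places depend on the length used, for DBP most. The file divides its fragments by 6544 bases, 3.02 times the length of its GENCODE canonical transcript (2170 bases), and per canonical length DBP would rank 4 in place of 8 in CTR. CRY1 would rank 3 in place of 5, CLOCK 5 in place of 3, NR1D2 6 in place of 4 and TEF 8 in place of 6, while NR1D1, PER1, CRY2, PER2 and PER3 would keep theirs.

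CLOCK is the bHLH-PAS activator and histone acetyltransferase of the loop (chromosome 4, 55427903 to 55547138, minus strand, hg38, as are all gene positions below). Its level was 8.10, 8.10 and 8.58 FPKM in CTR replicates 1 to 3. With miR-8485 it was 7.06, 7.47 and 7.80 FPKM. All 3 miR-8485 values lay below all CTR values, as was so in 1 direction or the other for 7 of the 10 clock genes and for 66.5% of all tested genes. The log2 fold change of -0.15 (95% interval -0.28 to -0.013) did not pass limma (adjusted p = 0.0580). It passed when values were rescaled to TPM (adjusted p = 0.0136) and with voom on the recovered fragments (adjusted p = 0.0395). The exons of CLOCK share 76 bases (0.659%) with TMEM165 on the other strand, which was at 11.9 FPKM and rose by 0.56 on the log2 scale (adjusted p = 2.26e-04 in limma).

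Among the period genes, which encode the PAS-domain repressors, PER1 was upregulated and neither PER2 nor PER3 passed the test. PER1 (chromosome 17, 8140472 to 8156506, minus strand) was at 10.6, 9.85 and 10.9 FPKM in CTR. It was at 15.2, 15.1 and 15.4 FPKM with miR-8485. The means were 10.5 ± 0.557 and 15.2 ± 0.153 FPKM (SD, n = 3 each), and the lowest miR-8485 library stood well above the highest CTR library. The log2 fold change was 0.54 (SE 0.053, adjusted p = 1.17e-04 in limma). Ranked with its sign it lay at 85.7% of tested genes, and ranked by size at 71.3%. PER1 was called under all 16 alternatives in which it was tested. Its exons share 78 bases with MIR6883 and 30 with ENSG00000263620, both listed at 0 in every library.

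PER2 (chromosome 2, 238244038 to 238290102, minus strand) was lower in all miR-8485 libraries, but did not pass after adjustment over all tested genes. Its level was 2.02, 2.37 and 2.08 FPKM in CTR and 1.49, 1.83 and 1.85 FPKM with miR-8485. These values rest on 251, 295 and 259 fragments in CTR and on 184, 228 and 242 with miR-8485. The groups did not overlap, and the log2 fold change was -0.31 (95% interval -0.61 to -0.016, adjusted p = 0.0661 in limma). It passed with TPM (adjusted p = 0.0260), without a variance trend (0.0439) and with voom (0.0274), and did not in the other 12 alternatives. Its exons share 188 bases (2.65%) with the noncoding ENSG00000225057, at 0.0071 FPKM.

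PER3 (chromosome 1, 7784320 to 7845177, plus strand) was the lowest clock gene and lay below the filter of 1 FPKM. CTR libraries held 0.411, 0.567 and 0.450 FPKM, from 60, 83 and 66 fragments. The miR-8485 libraries held 0.371, 0.416 and 0.428 FPKM, from 54, 61 and 66 fragments. The groups overlapped, and in a limma fit of all 31768 genes above 0 the log2 fold change was -0.18 with a 95% interval of -0.80 to 0.44 (adjusted p = 0.669). Its exons share 868 bases (10.7%) with UTS2 on the opposite strand, which was itself at 1.26 FPKM, and 482 bases (5.93%) with the noncoding ENSG00000236266, at 0.121 FPKM.

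Of the cryptochromes, flavoproteins that bind PER and repress CLOCK and BMAL1, CRY2 fell. CRY2 (chromosome 11, 45847118 to 45883248, plus strand) was at 3.34, 3.52 and 3.41 FPKM in CTR. With miR-8485 it was at 2.19, 2.02 and 2.64 FPKM, and replicate 3 was the highest of these and still below CTR. Its log2 fold change of -0.57 (SE 0.11, adjusted p = 0.00279 in limma) was the largest fall of a clock gene here, lower than in all but 13.2% of tested genes. CRY2 was called under all 15 alternatives in which it was tested, with log2 fold changes of -0.70 to -0.43.

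CRY1 (chromosome 12, 106991364 to 107093829, minus strand) was at 6.14, 5.91 and 5.87 FPKM in CTR and at 5.75, 6.40 and 5.98 FPKM with miR-8485. The miR-8485 values lay on both sides of the CTR values. The log2 fold change of 0.016 had a 95% interval of -0.12 to 0.16 (adjusted p = 0.830 in limma), and its sign turned with TPM (-0.098) and without miR-8485 replicate 2 (-0.025). Its exons share 94 bases (1.97%) with the noncoding ENSG00000257548, listed at 0.

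The REV-ERB genes encode heme-binding nuclear receptors that repress transcription. NR1D1 (chromosome 17, 40092787 to 40100725, minus strand) had the highest level of the clock genes, at 19.7, 20.3 and 23.6 FPKM in CTR. With miR-8485 it was at 18.8, 20.0 and 21.1 FPKM. The groups overlapped, with CTR replicate 3 above the other libraries, and the log2 fold change was -0.082 (95% interval -0.27 to 0.10, adjusted p = 0.399 in limma). Of its exon bases, 473 (18.0%) lie in exons of THRA, the thyroid hormone receptor gene on the opposite strand. THRA was at 4.47 FPKM, with a log2 fold change of -0.65 (adjusted p = 7.68e-04 in limma). Whether the counting used strand is not stated, so reads of these shared bases cannot be told apart.

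NR1D2 (chromosome 3, 23945260 to 23980618, plus strand) was at 8.47, 7.55 and 8.42 FPKM in CTR and at 6.95, 6.95 and 7.15 FPKM with miR-8485. The 3 miR-8485 libraries lay close together and below CTR replicate 2, the lowest of its group. The log2 fold change was -0.21 (SE 0.061, adjusted p = 0.0192 in limma). This call was lost when CTR replicate 1 (adjusted p = 0.0513), CTR replicate 3 (0.0634), miR-8485 replicate 1 (0.0546) or miR-8485 replicate 2 (0.0562) was left out, and held in the other 12 of 16 alternatives.

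Both output factors, which belong to the PAR bZIP family, were upregulated. DBP (chromosome 19, 48630030 to 48637438, minus strand) was at 3.73, 2.97 and 3.09 FPKM in CTR, from 440, 351 and 366 fragments. It was at 5.39, 5.14 and 5.76 FPKM with miR-8485, from 634, 608 and 718 fragments. All miR-8485 libraries lay above CTR replicate 1, the highest of its group. With a log2 fold change of 0.72 (SE 0.098, adjusted p = 5.44e-04 in limma), DBP had the largest change of the clock genes. Ranked with its sign it lay at 91.6% of tested genes, and ranked by size at 82.6%. It was called under all 15 alternatives in which it was tested, with log2 fold changes of 0.60 to 0.82. Its exons share 661 bases (10.2%) with those of SPHK2, a sphingosine kinase gene on the opposite strand. SPHK2 was at 3.76 FPKM and also rose, with a log2 fold change of 1.25 (adjusted p = 6.66e-05 in limma). How much of the DBP value comes from those bases was not tested.

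TEF (chromosome 22, 41367333 to 41399326, plus strand) was at 4.28, 4.30 and 3.95 FPKM in CTR and at 4.96, 4.88 and 4.92 FPKM with miR-8485. The miR-8485 values were tight and above all CTR values. The log2 fold change was 0.23 (SE 0.061, adjusted p = 0.0129 in limma). It was 0.12 and no longer called when values were rescaled to TPM (adjusted p = 0.176), and was called in the other 14 of 15 alternatives.

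**Figure D2:**
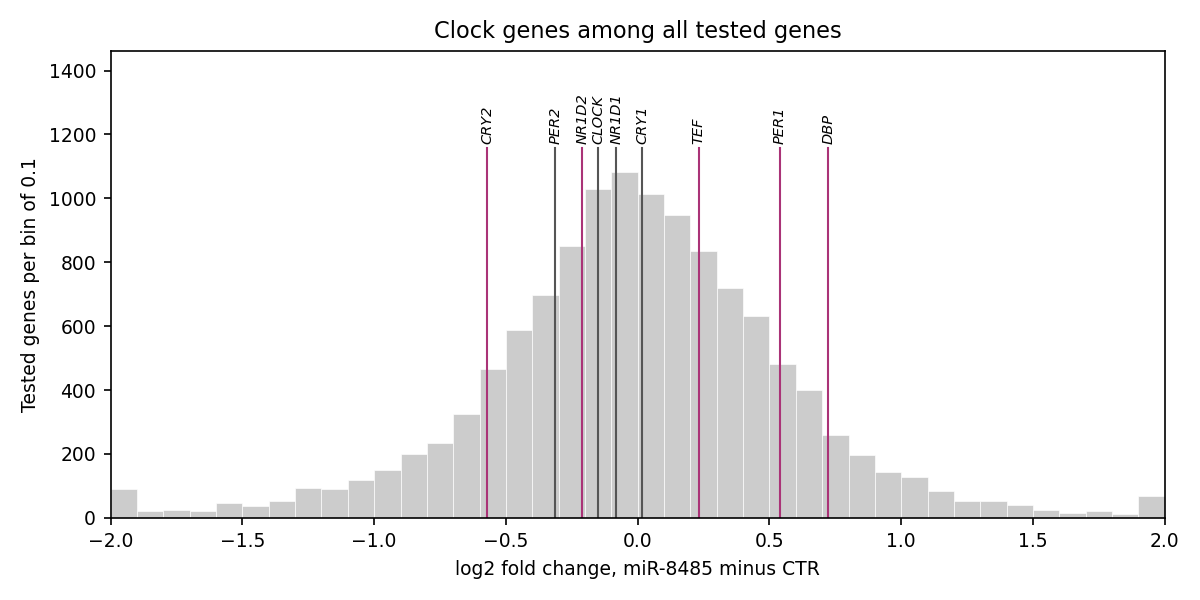
Number of tested genes (y axis) per bin of 0.1 of the log2 fold change, miR-8485 minus CTR (x axis), with a line for each of the 9 clock genes tested, purple where called and grey where not. The 131 genes beyond the drawn range are in the end bins. DBP at 0.72 and CRY2 at -0.57 are the outermost clock genes, at 91.6% and 13.2% of the ranked genes.

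Rescaling to TPM, in which every library sums to the same total of length-corrected values, shifted the median over the tested genes from a log2 fold change of -0.0041 to one of -0.12. The share of higher genes among those called went from 48.8% to 35.6%, and the clock genes split into 2 higher and 4 lower. Relative to that shifted median, PER1 was at 0.54, DBP at 0.74, TEF at 0.24, NR1D2 at -0.21 and CRY2 at -0.58. CLOCK and PER2, also called lower under TPM, were at -0.15 and -0.32 relative to it. Under FPKM their log2 fold changes were -0.15 and -0.31. The plot of all tested genes shows the same members under FPKM.

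Ratios of clock genes with like roles were taken within each library, since a scaling of the whole library hardly moves them. Of 9 pairs, some of which share a gene, 7 did not overlap between the groups. Taken singly, 66.5% of all tested genes did not overlap, and no such share was computed over pairs. With 3 libraries against 3 the exact two-sided permutation test cannot give a p below 0.1, so no pair could pass. The log2 ratio of PER1 to PER2 was 2.33, 2.01 and 2.34 in CTR and 3.26, 2.98 and 2.99 with miR-8485. Averaged as log2 ratios of FPKM + 0.1 and turned back, PER1 was thus at 4.68 times PER2 in CTR and at 8.44 times with miR-8485 (exact permutation p = 0.1, adjusted over the 9 pairs 0.129). The log2 ratio of CRY1 to CRY2 rose from a mean of 0.79 ± 0.067 to 1.37 ± 0.23 (SD, n = 3 each). In every miR-8485 library the 2 cryptochromes were further apart than in any CTR library (exact permutation p = 0.1, adjusted 0.129).

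The output factors were also compared with NFIL3, a bZIP repressor that binds the same D-boxes. The mean log2 ratio of DBP to NFIL3 was -3.21 in CTR and -2.26 with miR-8485, a difference of 0.95 (exact permutation p = 0.1, adjusted 0.129). For TEF to NFIL3 the difference was 0.46, and for DBP to TEF it was 0.49, with the mean going from -0.35 to 0.14. NFIL3 thus stood above both activators per file length in all 6 libraries. The ratio of PER1 to PER3 differed by 0.72 and that of CLOCK to ARNTL by 0.19, again without overlap, at the same p. Overlap was seen for PER2 to PER3 (difference -0.13) and for NR1D1 to NR1D2 (0.13), both at an exact permutation p of 0.2.

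**Figure D3:**
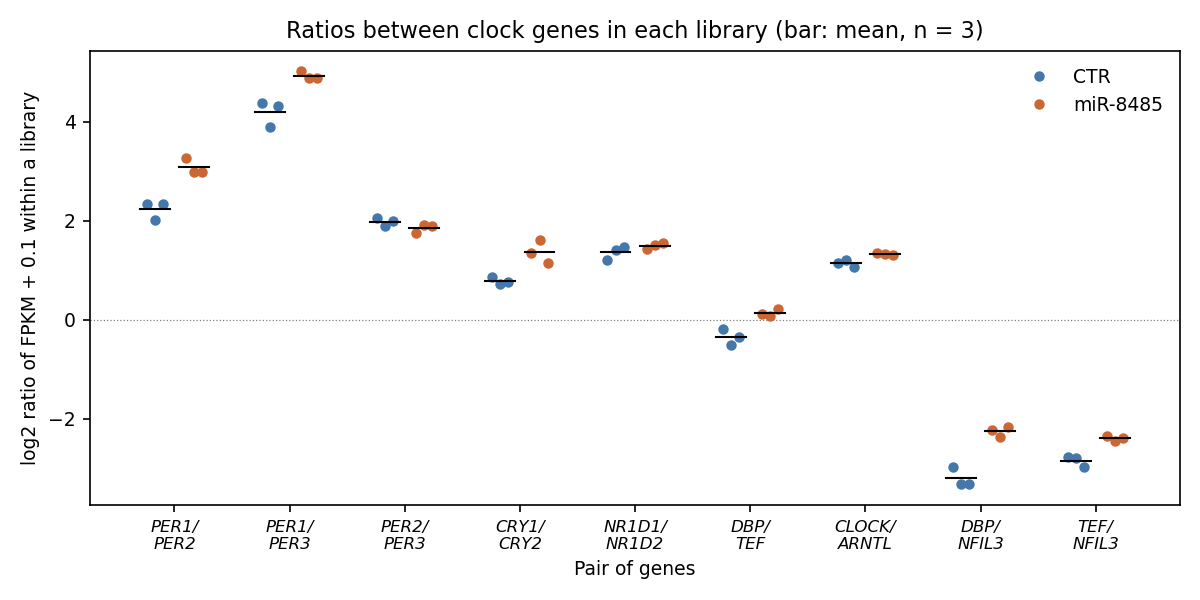
log2 ratio of FPKM + 0.1 between 2 genes of the same library (y axis) for 9 pairs (x axis), with a point for each of the 3 CTR and 3 miR-8485 libraries and a bar for the mean. The groups overlap for PER2/PER3 and NR1D1/NR1D2 and are apart for the other 7 pairs.

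Beyond the clock genes themselves, 20 partner genes of the pathway were read from the same fit, of which 14 were tested. In this list 1 gene was upregulated, 9 were downregulated and 4 did not pass, with a median log2 fold change of -0.31. Over all tested genes, 29.1% were higher and 30.5% lower, with a median of -0.0041. The number of higher genes was 0 when CTR replicate 2 or miR-8485 replicate 1 was left out. The dimer partners of CLOCK and their kin all fell, with ARNTL at -0.34 (adjusted p = 0.0112 in limma), ARNTL2 at -0.60 (2.09e-04) and NPAS2, a paralog of CLOCK, at -0.44 (0.0239). The call of NPAS2 was lost when any library but CTR replicate 1 was left out, at adjusted p up to 0.0791. ARNTL itself was at 3.62, 3.47 and 4.05 FPKM in CTR and at 2.72, 2.91 and 3.08 FPKM with miR-8485. The groups of ARNTL did not overlap, and it was called in all 15 alternatives.

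The largest change among the partners was that of BHLHE40 (DEC1), a repressor that competes for E-boxes. It was at 44.8, 48.3 and 45.1 FPKM in CTR and at 15.1, 14.5 and 16.7 FPKM with miR-8485. It thus went from above every clock gene to a level near that of PER1, with a log2 fold change of -1.57 (SE 0.064, adjusted p = 3.08e-06 in limma). Its paralog BHLHE41 was below the filter, at 0.730 to 0.812 FPKM in CTR and 0.336 to 0.536 with miR-8485 (log2 fold change -0.66, adjusted p = 0.120).

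Other partners act on the stability of the clock proteins, and 4 of them fell. FBXW11 changed by -0.82 (adjusted p = 2.66e-05 in limma) and BTRC by -0.30 (0.00337), and both encode F-box proteins that target PER for degradation. GSK3B, a kinase, changed by -0.32 (0.00712), and USP2, a deubiquitinase, by -0.54 (0.00738). Of the kinases of PER, CSNK1E was the 1 partner that rose (0.25, adjusted p = 0.0186), and this call was lost with TPM (0.154), without CTR replicate 2 (0.0604) and without miR-8485 replicate 1 (0.0630). CSNK1D was at 0.11 (adjusted p = 0.0513). NFIL3, the D-box repressor, changed by -0.23 (adjusted p = 0.00351). TIMELESS, SIRT1 and KDM5A had log2 fold changes of -0.14 to 0.063 and did not pass. RORA, CIART and HLF were below the filter, and RORB and FBXL21 were listed at 0 in every library. RORA, an activator that opposes REV-ERB at ROR elements, did not exceed 0.0163 FPKM in any library.

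**Figure D4:**
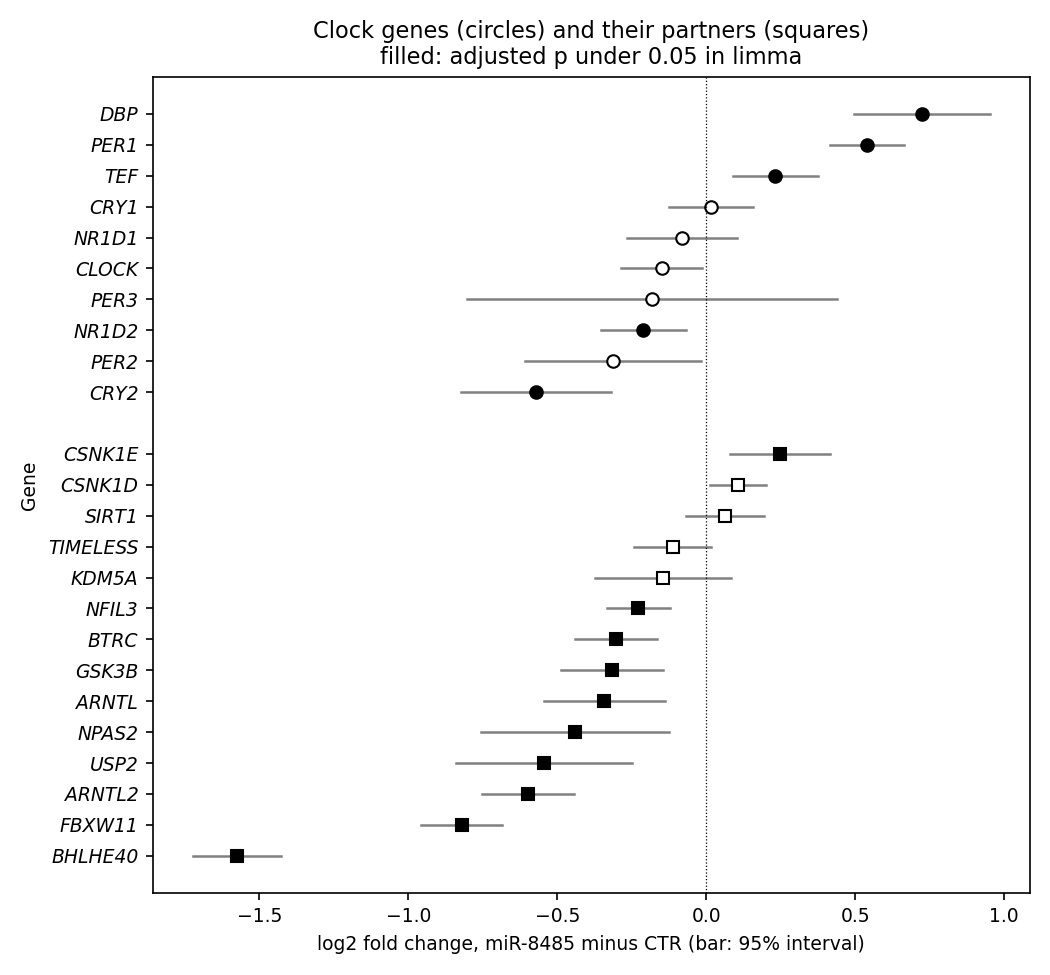
log2 fold change, miR-8485 minus CTR (x axis), with 95% intervals, for the 10 clock genes (circles) and 14 tested partner genes (squares), filled where the adjusted p in limma was under 0.05. PER3, below the filter of 1 FPKM, comes from the separate fit of all 31768 genes above 0. Clock genes lie on both sides of 0, from -0.57 for CRY2 to 0.72 for DBP, while 9 of the 10 called partners lie below 0, down to -1.57 for BHLHE40.

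The 3′ UTRs of the clock genes were also read for TGTGTGT, the word complementary to positions 2 to 8 of the miR-8485 mimic. By the GENCODE release 44 canonical transcripts, 6 of the 10 clock genes held it, with 14 copies in CRY2, 3 each in PER3 and NR1D2, 2 each in CLOCK and DBP and 1 in PER2. PER1, CRY1, NR1D1 and TEF held none, and of 10675 tested genes with a 3′ UTR 28.9% held a copy. Sites of the 3 called genes that hold the word are shown because they differ in direction (hg38). Capitals mark the stretch of overlapping copies of the word, and the alternation of T and G can run on beyond them.
CRY2, chr11:45882258-45882286, plus strand: cacaaagTGTGTGTGTGTGTGTgcgtgtg
NR1D2, chr3:23978688-23978716, plus strand: atgatggcaTGTGTGTGTGTgcgtgcgtg
DBP, chr19:48630625-48630653, minus strand: gagggttctcTGTGTGTGTccccggcacg

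CRY2 had 4 such stretches, in a 3′ UTR of 2333 bases, and was the clock gene with the largest fall. DBP, the clock gene that rose most, held 2 copies in a 3′ UTR of 807 bases. The other 2 upregulated genes, PER1 and TEF, held none. Of the 9 partners that fell, 4 held a copy in their canonical 3′ UTR (GSK3B 13, BHLHE40 10, FBXW11 5 and BTRC 2), and 5 held none (ARNTL, ARNTL2, NPAS2, NFIL3 and USP2). CSNK1E, which rose, held 11 in its canonical 3′ UTR and 0 in its longest, and of the partners that did not pass, KDM5A held 5 and CSNK1D 4. A copy is a match of letters, and no pairing of the mimic with these transcripts was measured. The part of these copies in the changes was not tested.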

How the data were processed

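RNA-seq was performed on 3 CTR and 3 miR-8485 libraries of HCT116 cells, grouped by the labels, with 0 value columns that matched no sample. After trimming with fastp, the authors aligned reads to hg38 using HISAT2 (version 2.0.5) and counted them per gene using featureCounts (version 1.5.0-p3), per the methods and the submitters' processing notes. The values deposited by the authors were FPKM with no further scaling between libraries, so that a change in a few abundant genes moves all others. Fragments were recovered from FPKM and gene length. Since the unit was FPKM and not counts, limma 3.58.1 (R 4.3.3, two-sided, variance trend, Benjamini-Hochberg) was applied to log2(FPKM + 0.1) of genes with a mean of at least 1 FPKM, a scale that understates changes of low genes. The script was tested on simulated data. Ratios used exact permutation tests (Python 3.11.15, scipy 1.17.1). All 10 clock genes, each called partner and genes with overlapping exons are named by rule. The clock genes, the partner list and the tests were chosen with earlier results of these data known, and the results of a few partner genes are not reported here. Alternatives were pseudocounts of 1 and 0.01, no filter, a filter of 5 FPKM, median-of-ratios scaling, quantile normalization, TPM, eBayes without a trend, a replicate block, voom, and each library left out.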

Additional observations from a re-analysis of the deposited data

How the results depend on the processing

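The 3 upregulated and 2 downregulated clock genes stayed at these numbers under both pseudocounts, no filter, median-of-ratios scaling, quantile normalization and the replicate block. A filter of 5 FPKM, which leaves 5 clock genes and 9 partners, gave 1 higher and 1 lower clock gene, 5 lower partners, and 2303 higher and 2417 lower of all genes, where 3593 and 3769 had been called. The lower clock genes numbered 3 without a variance trend, 4 with TPM and 4 with voom, and 1 to 2 with a library left out. Higher partners numbered 2 with a pseudocount of 1, no filter, median-of-ratios scaling, quantile normalization or voom, 0 with TPM, and 0 to 1 with a library left out. The median log2 fold change of the clock genes was -0.12 without a filter, which adds PER3, -0.20 with TPM, and -0.13 to -0.0021 with a library left out. Signs turned for CRY1 with TPM (-0.098) and without miR-8485 replicate 2 (-0.025, against up to 0.051 with another library left out), and with TPM for CSNK1D (-0.0081) and SIRT1 (-0.052). The cause of these changes was not tested beyond the genes each filter leaves in. Of the single-gene values of the 10 clock genes and 14 tested partners over all alternatives, 346 kept their direction and their side of the threshold, 13 lost a call, 11 gained one and 4 turned. Partners below the filter are not among these, and of them RORA and HLF turned sign in 1 alternative each. The labels give both groups replicate numbers 1 to 3, but same-numbered libraries did not deviate together (correlations 0.067, 0.033 and -0.064), so the numbers were not taken as a pairing. With the replicate block 3634 genes were higher and 3754 lower, and the clock genes still numbered 3 and 2. Of the clock genes, PER3 had the fewest fragments, 54 to 83 per library.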
